A study of Mus musculus with 8 samples.

Results

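The 10 genes described here belong to the cytochrome P450 family 4 of the mouse: Cyp4a10, Cyp4a12a, Cyp4a12b, Cyp4a14, Cyp4a31, Cyp4a32, Cyp4b1, Cyp4f13, Cyp4f14 and Cyp4v3. They were taken by symbol from the 46517 genes listed, and 9 of the 10 had enough reads to be tested. Levels came from mRNA sequencing of whole kidneys from 4 cKO mice (named KO16, KO18, KO19 and KO20) and 4 Control mice (named C10, C11, C13, C14). Control mice were Xpr1lox/lox littermates, in which exon 2 of Xpr1 is flanked by loxP sites. The cKO mice were Xpr1lox/lox-Pax8-rtTA/LC-1, in which a doxycycline-dependent activator driven by the Pax8 promoter turns on Cre recombinase in tubule cells. Both groups drank doxycycline at 2 mg/ml for 2 weeks from 8 weeks of age. The Cre and rtTA transgenes were carried by the cKO mice alone, so their presence and the loss of XPR1, a phosphate exporter, cannot be told apart. The labels name the animals and give no litter, batch or sex, and p-values measure the spread between these libraries.

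Enzymes of the CYP4 family are haem-thiolate monooxygenases of the endoplasmic reticulum that hydroxylate fatty acids at or near the omega carbon, with electrons from P450 reductase (Por) and cytochrome b5. The CYP4A enzymes are known in the kidney for lauric acid hydroxylation and for turning arachidonic acid into 20-HETE, a lipid that acts on vessel tone and tubular salt transport. Omega-hydroxylated acids are oxidised further to dicarboxylic acids, which peroxisomes shorten, and several Cyp4a genes are classic targets of the fatty acid receptor PPAR alpha. Cyp4a12a encodes the main 20-HETE synthase of the male mouse kidney and depends on androgen.

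All 10 members encode the stretch around the cysteine that holds the haem iron, and it is shown here because it marks them as P450s and shows how close the genes are. In the lines below, written 5′ to 3′ on the coding strand, capitals mark the cysteine codon.
Cyp4a10: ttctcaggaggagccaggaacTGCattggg
Cyp4a12a: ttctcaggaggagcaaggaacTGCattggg
Cyp4a14: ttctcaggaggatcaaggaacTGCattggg
Cyp4b1: ttttctgcagggcccaggaatTGCattggg
Cyp4f13: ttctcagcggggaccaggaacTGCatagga
Cyp4f14: ttctcggcgggacccaggaacTGCatagga
Cyp4v3: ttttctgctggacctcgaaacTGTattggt
Cyp4a31 and Cyp4a32 carried the same letters as Cyp4a10, and Cyp4a12b the same as Cyp4a12a. Against Cyp4a10, Cyp4a12a differed at 1 base, Cyp4a14 at 2, Cyp4b1, Cyp4f13 and Cyp4f14 at 6 each, and Cyp4v3 at 10. In every member the stretch crosses an exon junction, so its genomic span holds an intron. In GRCm38 it spans chr4:115529502-115532543 in Cyp4a10 (plus strand), chr4:115328986-115331846 in Cyp4a12a (plus), chr4:115487299-115489805 in Cyp4a14 (minus) and chr4:115625216-115625662 in Cyp4b1 (minus). The spans of the others are chr17:32924942-32925340 in Cyp4f13 (minus), chr17:32905666-32906065 in Cyp4f14 (minus) and chr8:45307107-45308407 in Cyp4v3 (minus).

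Cyp4a12a and Cyp4a12b are near copies, and the difference between them matters because reads that fit both were not assigned. Their coding sequences were 98.5% identical, with 23 mismatches over 1524 bases. Among stretches of 60 coding bases that lie within a single exon, the stretch with most differences (coding bases 630 to 689) held 4, in capitals here.
Cyp4a12a: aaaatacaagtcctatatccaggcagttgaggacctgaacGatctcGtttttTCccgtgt
Cyp4a12b: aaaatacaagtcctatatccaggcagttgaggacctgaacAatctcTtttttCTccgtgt
It lies at chr4:115326628-115326687 in Cyp4a12a and chr4:115432881-115432940 in Cyp4a12b, both on the plus strand of GRCm38. Of all 50-base stretches of the main transcript, 51.1% in Cyp4a12a and 50.6% in Cyp4a12b occurred in the transcript of no other gene. Among Cyp4a10, Cyp4a31 and Cyp4a32, whose coding sequences were 96.0% to 97.2% identical, that share was 69.5%, 78.2% and 53.2%. It was 89.7% in Cyp4b1, 93.0% in Cyp4v3, 97.3% in Cyp4f13 and in Cyp4f14, and 99.8% in Cyp4a14. These shares come from transcripts alone, without the read length, and describe the sequence and not the mapping of these reads.

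The members lie in 3 places in GRCm38. The 6 Cyp4a genes and Cyp4b1 share a stretch of chromosome 4, from Cyp4a12a (chr4:115299046-115332815, plus strand) through Cyp4a12b (chr4:115411624-115439034, plus), Cyp4a14 (chr4:115486200-115496142, minus), Cyp4a10 (chr4:115518264-115533649, plus), Cyp4a31 (chr4:115563649-115579015, plus) and Cyp4a32 (chr4:115600969-115621602, plus) to Cyp4b1 (chr4:115624725-115647723, minus). Cyp4f14 (chr17:32905070-32917342) and Cyp4f13 (chr17:32924688-32947402) are neighbours on the minus strand of chromosome 17. Cyp4v3 stands alone on chromosome 8 (chr8:45304944-45333216, minus). It overlaps Gm45753 on the same strand, which had 14 reads in all 8 libraries together.

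Reads assigned to genes ran from 20366113 (KO16) to 26155030 (C13) per library. Xpr1, the targeted gene, had 104 ± 19.0 CPM in Control and 16.6 ± 9.43 CPM in cKO kidneys (SD, n = 4 mice each), lower in the group labelled as its knockout; this count also covers exons outside the deleted one. CPM here is a gene's count relative to the library size after TMM scaling. KO16 and KO20 stood apart: the sixth of genes with the shortest transcripts was higher there than the Control mean by 0.95 and 0.49 on the log2 scale, and the longest sixth lower by 0.90 and 0.44, whereas C11 leaned the other way (-0.36 and 0.39). Of 8 marker genes of the first proximal tubule segments 7 fell (summed level 4689 to 12512 CPM in Control, 633 to 2132 CPM in cKO), and 3 of 6 markers of the last segment fell (5638 to 9184 CPM, 1631 to 3250 CPM). Of 7 macrophage and dendritic cell markers 5 rose, from a sum of 114 to 127 CPM to 255 (KO18), 285 (KO19), 695 (KO20) and 986 (KO16) CPM. Fibroblast and pericyte markers summed to 115 to 208 CPM in Control and 243 to 336 CPM in cKO libraries, with 1 of 5 called (Dcn; 3 without C11, 2 without KO16, 0 without C13). Hepatocyte markers summed to 237 to 449 CPM and 37.8 to 143 CPM, with 2 of 5 lower (Alb and Ttr; 4 without KO16 and KO20, 3 without KO16). The count for the last proximal tubule segment was 1 of 6 without C13 or without KO20. Of these markers, Slc27a2 (3759 ± 1029 CPM in Control) is also in the peroxisomal list below, and Slc7a13 in the male-biased list. Adipocyte markers summed to 1.56 to 13.3 CPM in Control, and to 104 (KO16), 3.62 (KO18), 34.2 (KO19) and 105 (KO20) CPM. Of the 4 tested, 0 were called (3 without KO18, 2 of 5 with DESeq2). All 8 libraries held reads of the Y-linked gene Ddx3y (50.1 to 103.5 CPM in Control, 21.7 to 96.7 CPM in cKO).

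Most of the family was lower in cKO kidneys. By edgeR's quasi-likelihood test, 6 of the 9 tested members fell at an adjusted p under 0.05 (Cyp4b1, Cyp4a12a, Cyp4a10, Cyp4a31, Cyp4a14 and Cyp4f13), Cyp4v3 rose, and Cyp4a12b and Cyp4f14 did not pass. Of all 15382 genes tested, 14.1% were called in either direction, 6.61% lower and 7.5% higher. Without C13, 3 members fell (Cyp4b1, Cyp4a12a and Cyp4a10). The median log2 fold change was -1.32 over the 9 members and 0.01 over all genes. The cKO libraries all lay below the Control libraries for 7 members and all above for 1, where 11.6% and 11.2% of all tested genes did so. In whole kidney, fewer cells of a type and less RNA per cell cannot be told apart. The part of the lower proximal tubule and hepatocyte markers and of the higher macrophage and fibroblast markers in these results was not tested. The part of the adipocyte markers was not tested either.

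**Figure D1:**
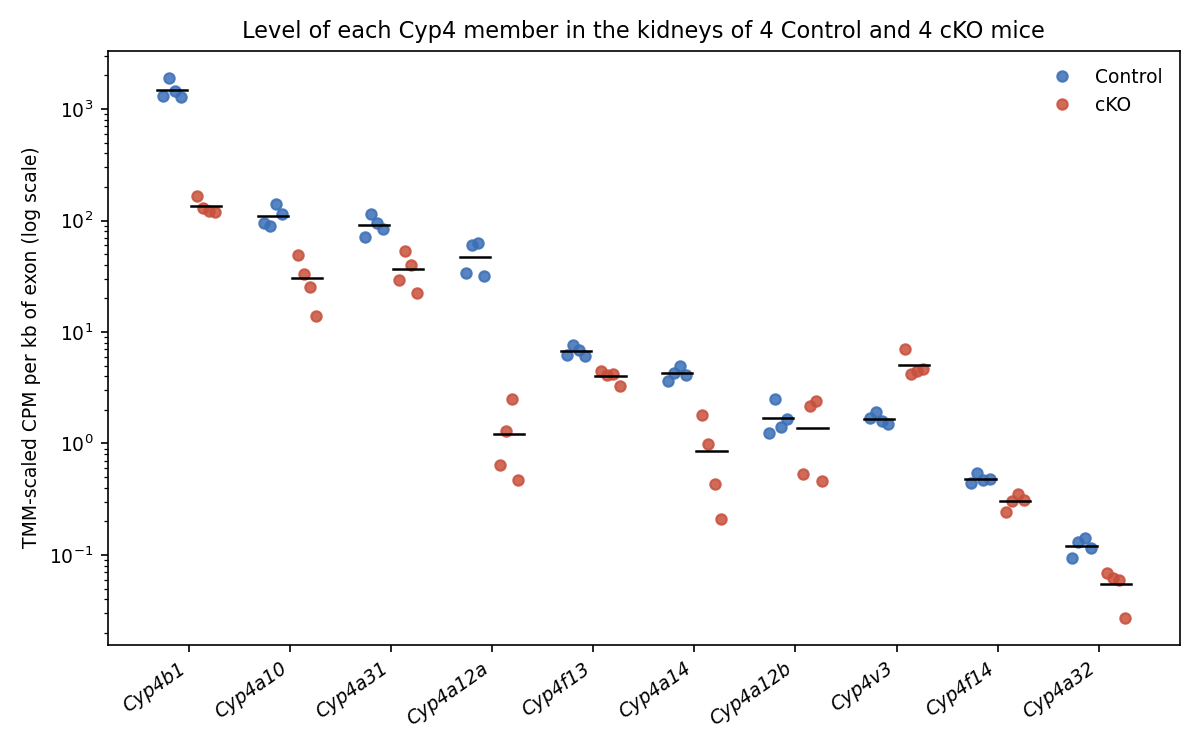
Level of each member in CPM per kilobase of exon on a log axis; each point is 1 mouse (blue Control, red cKO) and each black line a group mean. Cyp4b1 lies highest in both groups, and in cKO kidneys Cyp4a12a sits at 1.23 CPM per kilobase against 47.5 in Control kidneys.

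**Figure D2:**
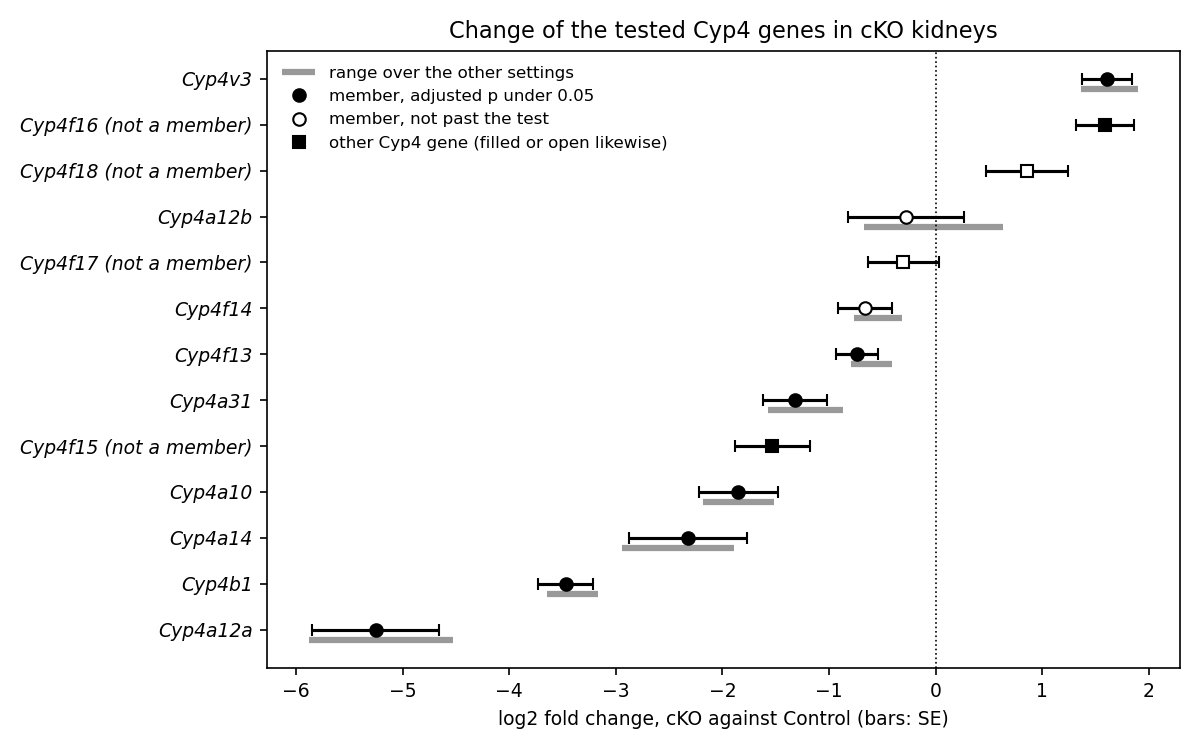
Log2 fold change of cKO against Control for the tested Cyp4 genes, with bars of 1 standard error; circles are members, squares other Cyp4 genes, filled symbols passed an adjusted p under 0.05 and grey bars span the values of the members under the other settings. The changes run from -5.25 (Cyp4a12a) to 1.61 (Cyp4v3).

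Cyp4b1, whose enzyme hydroxylates short and medium fatty acids and activates some foreign compounds, was by far the most abundant member. Its level was 2937, 4303, 3269 and 2866 CPM in C10, C11, C13 and C14, and 372, 293, 274 and 269.5 CPM in KO16, KO18, KO19 and KO20. The cKO libraries lay close together, and the highest of them was far below the lowest Control library. The mean of 302 ± 47.5 CPM was 9.03% of the Control mean of 3344 ± 663 CPM (log2 fold change -3.47, SE 0.26, adjusted p = 0.000215). The call held in all 18 other settings, with an adjusted p of at most 0.00218.

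The bases just upstream of Cyp4b1 are shown because it is the member with most reads among the 5 whose start sites were found in the RefSeq promoter table (Cyp4a32, Cyp4b1, Cyp4f13, Cyp4f14 and Cyp4v3). The 250 bases before its start site (RefSeq, GRCm38.p6, chr4:115647722-115647971, minus strand) read as follows, with capitals on a match to the steroid response half-site AGAACA, which lies on the other strand.
Cyp4b1: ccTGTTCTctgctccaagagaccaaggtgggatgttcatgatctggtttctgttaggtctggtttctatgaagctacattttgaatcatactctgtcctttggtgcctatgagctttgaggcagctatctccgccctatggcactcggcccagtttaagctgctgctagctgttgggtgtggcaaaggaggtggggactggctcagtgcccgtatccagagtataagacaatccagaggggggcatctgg
AGAACA was found on either strand in 19.0% of 32851 promoter windows of 250 bases before and 50 after a start site, and among the members in those of Cyp4b1 (first base at -248) and Cyp4a32 (at -215). The nuclear receptor half-site AGGTCA occurred in 16.3% of all windows and in none of the 8 windows of these 5 members. Cyp4a10, Cyp4a12a, Cyp4a12b, Cyp4a14 and Cyp4a31 had no window and were not searched for any of these letters. A pair of AGGTCA copies spaced by 1 base, the form that PPAR alpha binds with RXR, occurred in 0.0396% of all windows. GTTAAT, a half-site of HNF1 factors, occurred in 7.10% of windows, and among the members in Cyp4a32 (at -130) and in 1 window of Cyp4f14 (at -31). A match describes letters in a window and is no evidence of binding.

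Cyp4a12a, the 20-HETE synthase, had the largest fold change of the members. Its level was 82.2, 147, 153 and 77.6 CPM in C10, C11, C13 and C14, from 1704, 3671, 3514 and 1750 reads. It was 1.54, 3.10, 6.12 and 1.14 CPM in KO16, KO18, KO19 and KO20, from 29, 97, 202 and 27 reads. C11 and C13 were higher than the other Control libraries and KO16 and KO20 lowest of all, and the groups were well apart. The mean of 2.98 ± 2.26 CPM was 2.59% of the Control mean of 115 ± 40.6 CPM (log2 fold change -5.25, SE 0.59, adjusted p = 0.000892). This call too held in every other setting, with an adjusted p of at most 0.0045.

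Its near copy Cyp4a12b did not pass the test. It had 2.99, 6.02, 3.35 and 3.95 CPM in C10, C11, C13 and C14, and 1.28, 5.21, 5.73 and 1.10 CPM in KO16, KO18, KO19 and KO20. The groups overlapped: KO18 and KO19 lay within the Control range, and KO16 and KO20 below all of them. The log2 fold change was -0.28 (SE 0.55, adjusted p = 0.798). The direction turned with the libraries used. The value was 0.04 without KO20 and 0.42 without KO16 and KO20 (adjusted p = 0.392). It was 0.63 without KO16, KO20 and C11, where Cyp4a12b passed as higher (adjusted p = 0.0119). In that last setting 4689 of the 15881 genes tested passed as higher. The libraries low in Cyp4a12b were those that leaned to short transcripts and had the largest shares of alignments to several places. With the length trend removed the value was -0.30 (adjusted p = 0.795).

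The share of the pair's reads that fell on Cyp4a12b ranged from 2.14% to 4.84% in the Control libraries (mean 3.61%) and from 45.3% to 62.7% in the cKO libraries (mean 51.3%). All 4 cKO libraries lay above all 4 Control libraries, and the exact two-sided permutation p of 0.0286 is the smallest that 4 against 4 mice can give. The share is built from the same reads as the fold changes of the 2 genes, so this p adds no separate evidence. The share was 45.3% in KO16 and 49.1% in KO20, where both genes were low, and 62.7% in KO18 and 48.3% in KO19. When reads of the 2 copies were summed, the level was 119 ± 41.2 CPM in Control and 6.30 ± 4.60 CPM in cKO kidneys (log2 fold change -4.23, SE 0.59, adjusted p = 0.00214). Reads that fit both copies are missing from either count, and how many there were was not tested.

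**Figure D3:**
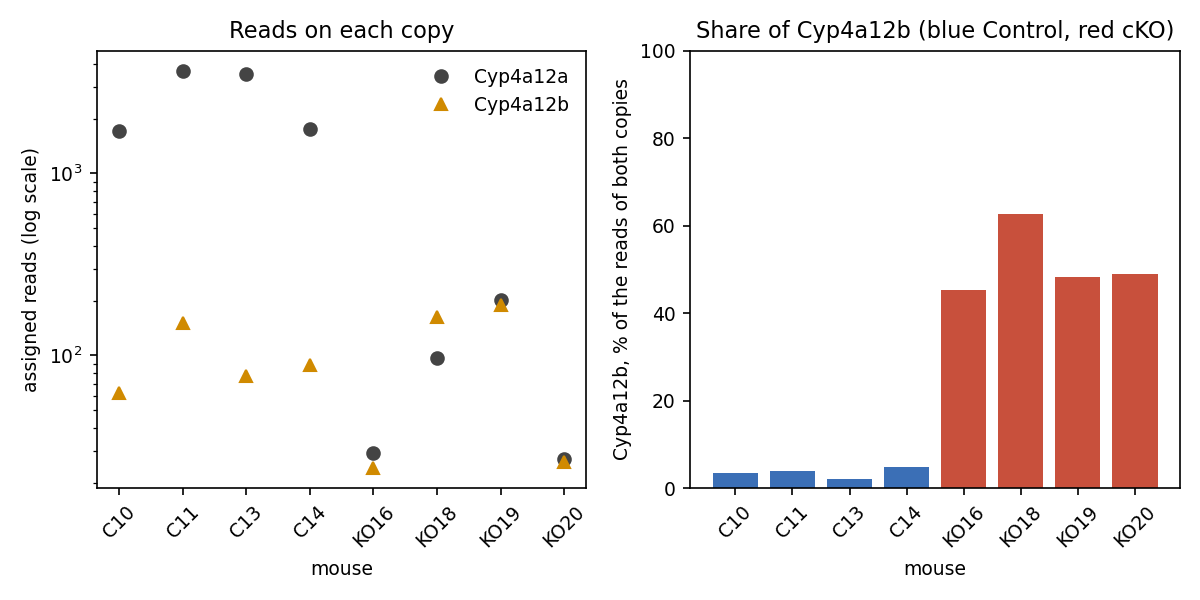
Left, assigned reads of Cyp4a12a and Cyp4a12b in each mouse on a log axis; right, Cyp4a12b reads as a percentage of the reads of both, in blue for Control and red for cKO. Cyp4a12a drops from at least 1704 reads to at most 202, and Cyp4a12b makes up at most 4.84% of the pair in Control and at least 45.3% in cKO libraries.

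Cyp4a10, a classic PPAR alpha-responsive lauric acid hydroxylase, and its near relative Cyp4a31 both fell. Cyp4a10 had 198, 188, 299 and 243 CPM in C10, C11, C13 and C14, and 104, 70.1, 53.2 and 29.5 CPM in KO16, KO18, KO19 and KO20. Cyp4a31 had 179, 285, 236 and 209.9 CPM in the same Control mice and 74.2, 134, 100.2 and 56.6 CPM in the cKO mice. KO16 was the highest cKO library for Cyp4a10 and the third for Cyp4a31, and in neither gene did the groups overlap. The log2 fold change was -1.85 for Cyp4a10 (SE 0.37, adjusted p = 0.0112), which passed in every setting. It was -1.32 for Cyp4a31 (SE 0.30, adjusted p = 0.0184), which did not pass without C13 (adjusted p = 0.0596) or when libraries were scaled by their totals alone (adjusted p = 0.0922).

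The share of Cyp4a31 in the reads of Cyp4a10, Cyp4a31 and Cyp4a32 overlapped between groups, with 44.1% to 60.2% in Control and 41.5% to 65.7% in cKO libraries. The 3 genes summed gave 460 ± 65.1 CPM in Control and 156 ± 50.8 CPM in cKO kidneys (log2 fold change -1.56, SE 0.29, adjusted p = 0.00753), which sets aside how reads divide between these copies. Cyp4a32 itself had 3, 5, 5 and 4 reads in the Control and 2, 3, 3 and 1 reads in the cKO libraries. This is at the limit of detection, and it was not tested.

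Cyp4a14, another PPAR alpha-responsive hydroxylase, was a minor member of the group in these kidneys. It had 9.50, 11.2, 12.9 and 10.7 CPM in C10, C11, C13 and C14, and 4.68, 2.59, 1.12 and 0.548 CPM in KO16, KO18, KO19 and KO20. Control libraries were tight, cKO libraries spread more widely, and the groups did not overlap. The log2 fold change was -2.32 (SE 0.55, adjusted p = 0.0231). The call was lost without C13 (adjusted p = 0.0662), C14 (0.0554), KO19 (0.0548) or KO20 (0.0524).

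Of the CYP4F enzymes, which hydroxylate leukotrienes and long fatty acids, Cyp4f13 fell by a smaller amount. It had 27.5, 33.7, 30.9 and 27.1 CPM in C10, C11, C13 and C14, and 19.7, 18.5, 18.8 and 14.6 CPM in KO16, KO18, KO19 and KO20. Both groups were tight and did not overlap. The log2 fold change was -0.74 (SE 0.19, adjusted p = 0.0341), and 10 of 18 other settings did not reach the threshold, among them leaving out any single library except KO16, with an adjusted p of up to 0.256. Cyp4f14 was barely present, at 1.06, 1.32, 1.13 and 1.15 CPM in Control and 0.585, 0.736, 0.848 and 0.759 CPM in cKO libraries, from 107 and 80 reads in all. Its groups did not overlap either, but its log2 fold change of -0.66 (SE 0.25) did not pass (adjusted p = 0.123).

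Cyp4v3, the mouse counterpart of the gene mutated in Bietti crystalline dystrophy and a hydroxylase of long-chain fatty acids, was the member that rose. It had 6.41, 7.26, 5.997 and 5.72 CPM in C10, C11, C13 and C14, and 27.0, 15.9, 16.9 and 17.7 CPM in KO16, KO18, KO19 and KO20. Every cKO library exceeded every Control library, and KO16 was well above the other 3. The mean was 6.35 ± 0.672 CPM in Control and 19.4 ± 5.14 CPM in cKO kidneys (log2 fold change of 1.61 ± 0.24 SE, adjusted p = 0.00266), a call that held in every other setting (adjusted p at most 0.0171). The summed macrophage and dendritic cell markers were higher in the same libraries and also highest in KO16, and the summed fibroblast and pericyte markers were higher in them, highest in KO20. Their part in this result was not tested.

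Outside the 10, 4 of 10 other Cyp4 genes were tested. Cyp4f16 rose much as Cyp4v3 did, from 6.23 ± 0.744 to 18.8 ± 6.06 CPM (log2 fold change 1.59, SE 0.27, adjusted p = 0.00519), with 26.0, 14.2, 13.3 and 21.6 CPM in KO16, KO18, KO19 and KO20. Cyp4f15 fell from 0.971 ± 0.307 to 0.331 ± 0.0836 CPM (log2 fold change -1.53, SE 0.35, adjusted p = 0.019), a call lost without C14, without KO20, without KO16 and KO20 together or by library totals alone (adjusted p up to 0.065). Cyp4f17 (-0.30, adjusted p = 0.619) and Cyp4f18 (0.85, adjusted p = 0.19) did not pass.

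Summed over the 10 members, the family had 3971 ± 726 CPM in Control and 504 ± 91.5 CPM in cKO kidneys. Cyp4b1 made up 84.1% ± 2.16 of that sum in Control and 60.4% ± 6.42 in cKO libraries, and without it the sum was 627 ± 105 and 202 ± 57.0 CPM. Cyp4v3 moved from 0.162% of the sum to 3.87%. Per kilobase of exon, the order in Control kidneys was Cyp4b1 (1482 CPM per kilobase), Cyp4a10 (110.0), Cyp4a31 (90.7), Cyp4a12a (47.5), Cyp4f13 (6.71), Cyp4a14 (4.26), Cyp4a12b (1.70), Cyp4v3 (1.67), Cyp4f14 (0.482) and Cyp4a32 (0.120). The libraries overlapped between Cyp4a10 and Cyp4a31 and between Cyp4a12b and Cyp4v3. In cKO kidneys the order was Cyp4b1 (134), Cyp4a31 (36.4), Cyp4a10 (30.5), Cyp4v3 (5.10), Cyp4f13 (4.03), Cyp4a12b (1.39), Cyp4a12a (1.23), Cyp4a14 (0.859), Cyp4f14 (0.303) and Cyp4a32 (0.0546). There Cyp4a31 and Cyp4a10, Cyp4v3 and Cyp4f13, and each neighbour from Cyp4a12b to Cyp4f14 overlapped. Both orders depend on the length used, all annotated exons of a gene, which for Cyp4f13 was 4441 bases against 1752 in its main transcript. The levels of near copies also miss the reads that fit more than 1 gene.

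Of 8 genes for electron donors (Por, Cyb5a, Cyb5b, Cyb5r3), P450-binding membrane proteins (Pgrmc1, Pgrmc2) and haem synthesis or breakdown (Alas1, Hmox1), 1 was lower, the outer mitochondrial cytochrome b5 gene Cyb5b (log2 fold change -0.76, adjusted p = 0.045), a call lost in 9 of 18 other settings, among them without any single Control library, KO19 or KO20 (adjusted p up to 0.336). Por, the reductase, had 230.3 ± 141 CPM in Control and 93.8 ± 28.3 CPM in cKO kidneys (-1.30, adjusted p = 0.0669). Of 9 alcohol and aldehyde oxidising genes, 3 fell and 1 rose. The alcohol dehydrogenase Adh1 fell to 118 ± 40.6 from 527 ± 132 CPM (-2.16, adjusted p = 0.00268) and the aldehyde dehydrogenase Aldh9a1 to 184 ± 50.4 from 529 ± 17.1 CPM (-1.52, adjusted p = 0.00327). The third, Aldh3a2, a fatty aldehyde dehydrogenase (-0.74, adjusted p = 0.0401), lost its call in 12 of 18 other settings, among them without any single library except KO16 (adjusted p up to 0.272). Aldh1a1, a retinal and aldehyde dehydrogenase, rose to 180.2 ± 54.0 from 12.9 ± 2.16 CPM (3.80, adjusted p = 0.000215).

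The median log2 fold change was -0.59 over 18 genes listed around the peroxisomal breakdown of dicarboxylic acids, transport included and not chain shortening alone. Of these 18 genes, 8 fell. They included the bifunctional enzyme Ehhadh (712 ± 78.8 to 285 ± 72.4 CPM, -1.32), the thiolase Acaa1b (159.6 ± 15.5 to 71.6 ± 14.9 CPM, -1.16) and the peroxisomal fatty acyl transporter Abcd3 (452 ± 17.9 to 207 ± 37.9 CPM, -1.13), whose call was lost by library totals alone (adjusted p = 0.0615). Without C13 or KO20 the count was 4, without C10 or C14 it was 5, with the length trend removed 5, and under scaling by library totals alone 3 fell and 1 rose. The 27 tested PPAR alpha targets outside Cyp4 were divided: 6 fell and 3 rose, median -0.13. Cd36, a fatty acid carrier, fell to 279 ± 47.8 from 1012 ± 123 CPM (-1.86), and Ucp3, a mitochondrial carrier, rose to 2.65 ± 0.784 from 0.394 ± 0.216 CPM (2.74). Without KO16 and KO20, 12 of 28 fell and 2 rose; without KO16 alone 10 fell, without C13 or KO20 3, and without C14 or by library totals alone 2. The count of 3 that rose became 1 without KO20 or any single Control library and 5 by library totals alone. Ppara itself had 46.6 ± 20.7 CPM in Control and 11.8 ± 6.07 CPM in cKO kidneys (-1.97, adjusted p = 0.019), and was the 1 of 16 pathway regulators that passed, a call lost without KO16 and KO20 together and by library totals alone (adjusted p up to 0.0595).

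**Figure D4:**
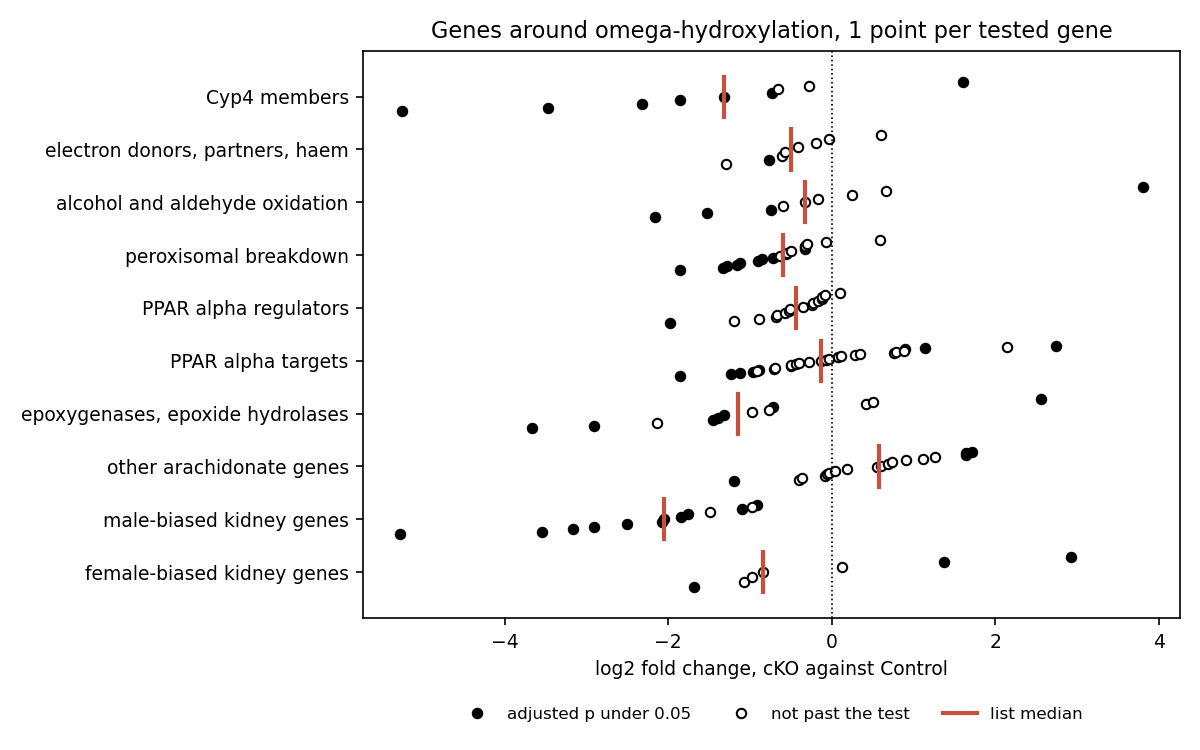
Log2 fold change of cKO against Control for each tested gene of the Cyp4 members and 9 related lists; filled points passed an adjusted p under 0.05 and red lines mark list medians. The medians run from -2.06 for male-biased kidney genes to 0.58 for the other arachidonate genes, and most lists hold points on both sides of 0.

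Among the other routes of arachidonic acid, 6 of 12 tested epoxygenase and epoxide hydrolase genes fell and 1 rose (2 without KO16 or any single Control library). The epoxygenase gene Cyp2j13 fell to 58.2 ± 18.5 from 435 ± 100.3 CPM (log2 fold change -2.90, adjusted p = 0.000671) and Cyp2j9 to 9.38 ± 1.94 from 25.7 ± 3.40 CPM (-1.45, adjusted p = 0.00365). Ephx1, the microsomal epoxide hydrolase, rose to 276 ± 162 from 46.8 ± 5.57 CPM (2.56, adjusted p = 0.00275). Of 18 genes of arachidonate release, prostanoid and leukotriene synthesis, 3 rose and 1 fell. Hpgds, a prostaglandin D synthase of immune cells, rose to 9.70 ± 1.53 from 3.10 ± 0.389 CPM (1.65, adjusted p = 0.00172), in the libraries where macrophage markers also rose, and the part of those cells was not tested. The count of 3 became 1 without C13, C14 or KO20, 2 without C10, without C11, without KO16 and KO20 together, with RLE factors or with limma-voom, 4 without KO18 or with upper-quartile factors, and 6 by library totals alone. Without KO16 and KO20, 9 of 15 epoxygenase and hydrolase genes fell and 2 rose. The number of these genes that fell was 4 without C10, without C13 or by library totals alone. It was 5 without C14, KO19 or KO20, with upper-quartile factors or with a mean of at least 1 CPM. It was 7 without KO18, with limma-voom or with the length trend removed, 8 with DESeq2 and 9 without KO16.

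Because Cyp4a12a is androgen-dependent, a list of male-biased or androgen-dependent kidney genes was set beside it. Of 13 tested, 11 fell, with a median log2 fold change of -2.06, and the count ran from 9 without C13 or without KO20 to 13 without C11, without KO16 or without KO16 and KO20 together. They included Cyp2e1 (-5.27, adjusted p = 0.000215), the organic anion carrier Slco1a1 (-3.54, adjusted p = 0.000427) and Odc1, the first enzyme of polyamine synthesis (-3.16, adjusted p = 0.000519). Kap, the abundant kidney androgen-regulated protein, chosen after its values were seen, did not pass (-1.49, adjusted p = 0.096). Of 7 female-biased genes 2 rose and 1 fell, and their median log2 fold change was negative too, at -0.83. Among them were Slc7a12 (2.93, adjusted p = 0.0203), a call lost without C14 (adjusted p = 0.068), and Cyp2a4 (-1.68, adjusted p = 0.00473). Without KO16 and KO20, 3 of 8 fell and 2 rose, without KO16 alone 3 fell and without C11 2; the number that rose was 1 without C10, C13 or KO19 and 0 without C14. Srd5a2, which makes dihydrotestosterone, fell from between 8.07 and 12.9 CPM in Control to between 0.337 and 0.667 CPM in cKO libraries (-4.23, SE 0.30, adjusted p = 0.000215). Many of these genes are expressed in the proximal tubule, whose markers fell in the same libraries, and the part of that fall was not tested. The lists are not separate: Cyp2j13 is also counted among the epoxygenase genes, and Slc7a13 among the proximal tubule markers.

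The genes most like each member were found by the root-mean-square distance between log2 CPM profiles over the 8 libraries, each centred on its own mean, so a small distance means profiles that run in parallel. Nearest to Cyp4b1 were Etnppl, a phospholyase (0.239 log2 units), and Ces1e, a carboxylesterase (0.264). Nearest to Cyp4a12a, at larger distances, were Hrg (0.513) and Fcamr (0.589). Cyp4a10 ran closest to Cym (0.179), Enpp6 (0.191) and the organic anion transporter Slc22a7 (0.250), and Cyp4a14 to Ugt1a7c (0.385), the anion transporter Slc22a6 (0.436) and Ass1, an enzyme of arginine synthesis (0.460). Cyp4a31 was nearest to Ivd, of leucine breakdown (0.143), and Cyp4f13 to Taz (0.0756) and the peroxisomal protease Lonp2 (0.0767). Cyp4f14 ran with Adpgk (0.0764), and Cyp4v3 with Tmem253 (0.125), the mitochondrial carrier Ucp2 (0.139) and Aldh1a7 (0.157). Cyp4a12b had as neighbours Depdc5 (0.125), Ralgapa2 (0.146) and Ralgps1 (0.148), 3 genes that, like it, were low in KO16 and KO20 and did not pass the test. All the neighbours share these 8 libraries and their depth and length lean, so a small distance is a description of profiles.

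Within the family, Cyp4f13 and Cyp4f14 had the most similar profiles (0.212 log2 units) and Cyp4a12a and Cyp4v3 the least (3.61). Cyp4a12a and Cyp4a12b, with 98.5% identical coding sequences, stood 2.46 apart, and Cyp4a10 and Cyp4a31, with 96.6%, stood 0.588 apart. Cyp4a10 and Cyp4a14, with 76.1%, stood 0.496 apart. The distances are not scaled for the size of a change, so they also carry the fold changes given above.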

How the data were processed

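Poly(A) RNA of whole kidneys was sequenced after stranded library preparation from 500 ng of total RNA, per the labels' protocols. The deposited files hold raw counts, 1 value per Ensembl gene and library. Per the submitters' processing notes, the tools were cutadapt 1.3, STAR 2.4.0g and HTSeq 0.6.1 with build GRCm38. Not given in the sources used here: annotation release, read length and strand setting. Overlapping genes on either strand may therefore share reads in an unknown way. Lines naming no gene (39.7% to 56.2% of each file's total, mostly alignments to several places) entered neither library sizes nor tests. Reads fitting more than 1 gene copy are therefore missing from the counts of near-identical genes. Alignments to several places made up the largest shares in KO20 (53.4%) and KO16 (49.8%), against 33.7% (C11) to 43.3% (C10) in the other libraries. The part of this difference in the results was not tested.

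Symbols, positions and exon lengths came from GENCODE vM21, which matched 46005 of 46517 identifiers. Coding sequences were read from its transcripts and promoter windows from RefSeq (GRCm38.p6). Groups came from the labels. Counts were compared with edgeR 4.0.16 (R 4.3.3): TMM factors, filterByExpr (minimum count 10, minimum total 15) and quasi-likelihood F tests over the 8 libraries, with Benjamini-Hochberg adjustment over 15382 genes and a threshold of 0.05. Standard errors (SE) follow from the F value and the fold change. CPM used TMM-scaled library sizes, and profiles used log2 CPM with a prior count of 2. The common biological coefficient of variation over all tested genes was 0.386. At that value the spread between mice outweighs counting error for genes with many reads. For genes with few reads, such as Cyp4f14 with 11 to 33 reads per library, counting error weighs too. The procedure was also run on counts simulated with the common coefficient of variation for every gene and no length lean. That run therefore does not cover the length lean of these libraries. The share test used scipy 1.17.1, sequence comparison Biopython 1.88 and figures matplotlib 3.10.9.

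The members and gene lists were chosen with earlier results of these data known. The genes named are all members, Xpr1, in each related list the lowest p-values (at most 4 genes if at least 3 passed, otherwise at most 2; any member of a list of 10 or fewer), and the 3 genes nearest to each member by profile, of which some are not printed; others are said to be chosen after their values were seen. A few selected genes are not reported here. Alternatives were library totals alone, upper-quartile and RLE factors, no filter, a mean of at least 1 CPM, DESeq2 1.42.0, limma-voom (limma 3.58.1), removal of the length trend, leaving out each library, leaving out KO16 and KO20 or these and C11, and summing near-identical members. The use of these settings for genes outside the members was chosen after seeing the data.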

Additional observations from a re-analysis of the deposited data

Results flagged for a closer look

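In the cKO group, KO16 held 27.0 CPM of Cyp4v3, far above the other 3 libraries. Its gap to the nearest of them was 0.840 of the group's range, above Dixon's 95% critical value for 4 samples. Among the 18 groups of 4 mice examined this was the single such case, and chance flags about 1 in 20. Cyp4v3 was higher in cKO kidneys without KO16 too, at 15.9 to 17.7 CPM against 5.72 to 7.26 CPM.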

How the results depend on the processing

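Cyp4b1, Cyp4a12a, Cyp4a10 and Cyp4v3 kept their direction and passed in every setting tried. Leaving out single libraries gave 1106 to 2697 changed genes, against 2170 with all 8 (1436 without C10, 1106 without C13, 1200 without C14, 1311 without KO20), and 4 to 7 changed members, of which 3 to 6 were lower; C13 gave the lowest of each, when Cyp4a31, Cyp4a14 and Cyp4f13 no longer passed. Without KO16, KO20 and C11, 9175 of 15881 genes passed, 4689 of them as higher, and 2 members were higher, Cyp4v3 and Cyp4a12b. The log2 fold change of Cyp4a12b turned positive by library totals alone (0.13), without KO20 (0.0372), without KO16 and KO20 (0.42) and without those and C11 (0.63), and ranged from -0.67 to 0.04 over single libraries left out. DESeq2 called 3255 genes. Library totals alone moved the median of all genes to 0.34 and the share of higher among the calls from 53.2% to 81.2%, and upper-quartile factors moved the share to 63.9%. The causes were not tested. Depth limits Cyp4a32, with at most 5 reads per library.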
